A study of Homo sapiens with 2 samples.

Results

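The AP-1 and immediate-early factors are 10 genes that encode transcription regulators, namely FOS, FOSB, FOSL1, FOSL2, JUN, JUNB, JUND, EGR1, NR4A1 and IER2. They were chosen by name, with earlier results of these data known. All 10 were found among the 19927 gene symbols of a deposited count table. The table holds 2 libraries of poly(A)-selected mRNA from Huh7, an established human hepatocellular carcinoma cell line. The HD library is from cells kept for 48 h in medium with homochlorcyclizine dihydrochloride (HD), an antihistamine that blocks histamine H1 receptors, at a dose that the labels do not state, and the DMSO library is from cells kept for 48 h with DMSO, the solvent control. The number of cultures behind each library is not stated in the labels. The comparison asks how the transcripts of these factors differ after treatment with the compound. Each group has 1 library, so every difference is one between these 2 libraries, no test could be made and no p-value is given.

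Immediate-early genes are transcribed within minutes of a stimulus, without new protein synthesis, when signalling kinases act on factors already bound at their promoters, chiefly the serum response factor with its ETS-type partners and CREB-type proteins. FOS and JUN proteins pair through leucine zippers to form AP-1, which binds DNA at short palindromic sites. FOS proteins need a partner, whereas JUN proteins can also pair among themselves. In liver, AP-1 and EGR1 are known for their induction during regeneration and stress. These mRNAs are usually short-lived, so a level at 48 h is a late snapshot and not a record of the first response.

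All 10 transcripts were more abundant in the HD library than in the DMSO library, from 1.22-fold (FOS) to 2.87-fold (NR4A1). The median of the 10 ratios was 1.77, or 0.82 on the log2 scale. JUND had a ratio of 2.16 and JUN, the gene with the most counts in both libraries, one of 1.52. The counting interval of each of the 10 ratios lay above 1. Among the 15977 genes with at least 1 count in either library, 50.0% had a ratio above 1 and 32.5% an interval wholly above 1. This set includes genes with few counts, whose intervals are wide, so the 32.5% is not matched to the 10 genes for level. Ratios are HD over DMSO of CPM, which are counts scaled to library size, after TMM scaling, a trimmed-mean correction for library composition, and intervals are exact 95% counting intervals that hold no variation between cultures.

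The total was 40791119 counts in the HD library and 38133894 in the DMSO library. The 2-fold rule used below takes as higher or lower any gene whose ratio is 2-fold or more with an interval that excludes 1. It was applied to the 12353 genes averaging 1 CPM or more over both libraries, called measured genes here. By this rule 5.81% of genes were higher, 5.10% were lower, and the median log2 ratio was -0.01. Of the 11 hepatocyte markers listed, among them albumin and alpha-fetoprotein, none passed 2-fold, and their summed level was 22501 CPM in the HD library and 24149 CPM in the DMSO library. Summed markers of other cell types were at 47.0 against 43.1 CPM for fibroblasts, 547 against 464 CPM for immune cells and 5.92 against 12.0 CPM for endothelium. Lysozyme (LYZ) made up 527 against 446 CPM of the immune sum. PECAM1, which was lower by the 2-fold rule, made up 5.63 against 11.7 CPM of the endothelial sum. The fibroblast genes COL1A2 and THY1 and the endothelial genes KDR, TEK and CLEC4G were at 0 counts in both, where a count of 0 still leaves room for 0.0737 CPM in the HD and 0.0785 CPM in the DMSO library. The part of such cells in the ratios below was not tested. In bulk RNA a different share of responding cells and a different amount of RNA per cell cannot be told apart.

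The promoters are shown first because the factors that switch on these genes act there. Promoter sequences of RefSeq (GRCh38.p14, 250 bases before and 50 after the start) were matched for 9 of the 10 genes, with 2 starts for NR4A1. The pentamer TGACG, the core of the CRE to which CREB and ATF proteins bind, was found on either strand in 8 of these 9 genes. It stood in 24.6% of all 35116 promoters of the same length and in 31.2% of those of measured genes. The promoters of FOSB, FOSL2, JUNB and IER2 are represented by 41 bases around the copy nearest to the start, with TGACG, or CGTCA where the copy is on the other strand, in capitals. The copies begin 60, 66, 137 and 140 bases before the start, and the windows lie at chr19:45467918-45467958, plus strand; chr2:28392774-28392814, plus strand; chr19:12791331-12791371, plus strand; and chr19:13150253-13150293, plus strand.
FOSB: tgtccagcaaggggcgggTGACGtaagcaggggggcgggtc
FOSL2: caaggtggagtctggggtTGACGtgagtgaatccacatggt
JUNB: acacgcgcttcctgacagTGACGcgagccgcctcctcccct
IER2: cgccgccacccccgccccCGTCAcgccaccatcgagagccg

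The other 4 promoters with a CRE core are given whole, as those of the founding members of each family (FOS and JUN), of the most abundant gene by length-scaled level in the HD library (JUND) and of the gene with CArG boxes (EGR1). Capitals mark TGACG, TGACNTCA (an 8-base AP-1 or CRE-like site, of which TGACGTCA is the full CRE), TGANTCA (the AP-1 site), TATAAA and the CArG box of the serum response element, searched on both strands. TGACGTCA contains TGACG on both strands and also matches TGACNTCA. The JUND promoter (chr19:18281573-18281872, minus strand) holds a full CRE, present in 1.85% of all promoters and 2.75% of those of measured genes, and 3 CRE cores, 2 of which lie within the CRE. The EGR1 promoter (chr5:138465229-138465528, plus strand) holds 2 CArG boxes, an element in 1.29% of all promoters and 1.10% of those of measured genes, and a match to the EGR site GCGNGGGCG. The JUN promoter (chr1:58783998-58784297, minus strand) holds the 8-base site as TGACATCA, and TGACNTCA stood in 7.72% of all promoters and 6.19% of those of measured genes. The FOS promoter (chr14:75278578-75278877, plus strand) holds a CRE core 64 bases and a TATA box 33 bases before the start. Its serum response element is known to lie farther upstream than this window reaches.
JUND: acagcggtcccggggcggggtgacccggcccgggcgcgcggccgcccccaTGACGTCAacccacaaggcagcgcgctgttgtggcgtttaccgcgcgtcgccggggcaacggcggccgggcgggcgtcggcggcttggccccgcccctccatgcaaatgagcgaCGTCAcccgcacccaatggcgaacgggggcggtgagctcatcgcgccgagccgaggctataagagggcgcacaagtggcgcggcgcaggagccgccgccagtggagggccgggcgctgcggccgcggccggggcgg
EGR1: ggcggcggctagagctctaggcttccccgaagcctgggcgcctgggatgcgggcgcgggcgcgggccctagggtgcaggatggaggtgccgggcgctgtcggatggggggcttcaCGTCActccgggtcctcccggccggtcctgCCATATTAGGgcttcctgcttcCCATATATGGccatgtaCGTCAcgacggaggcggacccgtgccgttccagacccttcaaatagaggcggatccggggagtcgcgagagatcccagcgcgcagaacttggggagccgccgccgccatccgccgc
JUN: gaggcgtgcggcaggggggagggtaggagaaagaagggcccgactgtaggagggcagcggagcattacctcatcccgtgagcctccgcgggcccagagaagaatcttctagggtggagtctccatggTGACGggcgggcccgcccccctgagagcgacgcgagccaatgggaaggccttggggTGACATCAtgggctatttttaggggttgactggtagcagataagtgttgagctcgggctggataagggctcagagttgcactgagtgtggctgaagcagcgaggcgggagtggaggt
FOS: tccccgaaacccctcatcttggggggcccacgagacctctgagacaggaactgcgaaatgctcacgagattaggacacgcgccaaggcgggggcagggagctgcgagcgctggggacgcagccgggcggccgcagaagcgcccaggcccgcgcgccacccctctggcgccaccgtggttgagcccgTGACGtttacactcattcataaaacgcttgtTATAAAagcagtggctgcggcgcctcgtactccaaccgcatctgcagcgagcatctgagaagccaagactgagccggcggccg

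Neither NR4A1 promoter holds any of these marked elements. TATAAA was found in FOS, FOSB and JUNB, against 11.5% of all promoters and 6.47% of those of measured genes. TGANTCA was found in FOSL2 alone, as TGACTCA beginning at base 5 of the transcript, against 7.71% and 5.12%. The SP1 box GGGCGG was in 7 of the 9 genes, and in 45.0% of all promoters and 65.2% of those of measured genes. GCGNGGGCG was in EGR1 alone, and in 9.43% of all promoters and 14.4% of those of measured genes. The genes that share TGACG differed in their ratio, from FOS at 1.22 to JUND at 2.16. NR4A1, which had no copy in the windows matched here, had the highest ratio. The 2 windows matched for NR4A1 begin at bases 52022582 and 52037465 of chromosome 12, and its RefSeq span ends at base 52059503. Starts farther along this span were not searched, and a link of TGACG to the ratios was not tested. A match describes letters in this window and is not evidence of binding.

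The summed length-scaled level of the FOS family was 1.51 times as high in the HD library after TMM scaling, and no member was higher by the 2-fold rule. FOS (chromosome 14, 75278828 to 75282230), the founding partner of JUN in AP-1, had 875 counts in the HD library and 672 in the DMSO library, which is 10.2 against 8.38 FPKM, the deposited value that scales counts to gene length and library total. Its ratio of 1.22 (interval 1.10 to 1.35) was the lowest of the 10. FOSL2 (chromosome 2, 28392858 to 28417317), which encodes FRA-2, a FOS protein without the strong activation domain of FOS, had 2498 counts against 1225, or 9.37 against 4.91 FPKM. Its ratio of 1.91 (1.79 to 2.05) was just under 2-fold. FOSB (chromosome 19, 45467996 to 45475179), whose splice form delta-FOSB is a long-lived protein, had 349 counts against 201, or 2.34 against 1.44 FPKM, a ratio of 1.63 (1.37 to 1.95). FOSL1 (chromosome 11, 65892049 to 65900545), which encodes FRA-1, had 42 counts against 19, or 0.657 against 0.318 FPKM. Its ratio was 2.07 with a wide interval of 1.18 to 3.78, and its mean of 0.764 CPM was below the filter of 1 CPM, so it is not among the genes counted by the 2-fold rule.

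Within the family, the share of FOS was smaller and that of FOSL2 larger in the HD library. FOS made up 45.2% of the summed FPKM of the 4 genes in the HD library and 55.6% in the DMSO library. FOSL2 made up 41.5% in the HD library and 32.7% in the DMSO library, while FOSB was at 10.4% against 9.59% and FOSL1 at 2.91% against 2.11%. Comparing ratios within the same libraries does not depend on the scaling between them. The ratio of FOS was 0.639 times that of FOSL2 (0.565 to 0.721) and 0.750 times that of FOSB (0.614 to 0.916). The other 4 pairs of the family, among them FOSB with FOSL2 at 0.851 (0.707 to 1.03), had intervals that include 1, and those with FOSL1 were wide, down to 0.339 and up to 1.87.

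**Figure D1:**
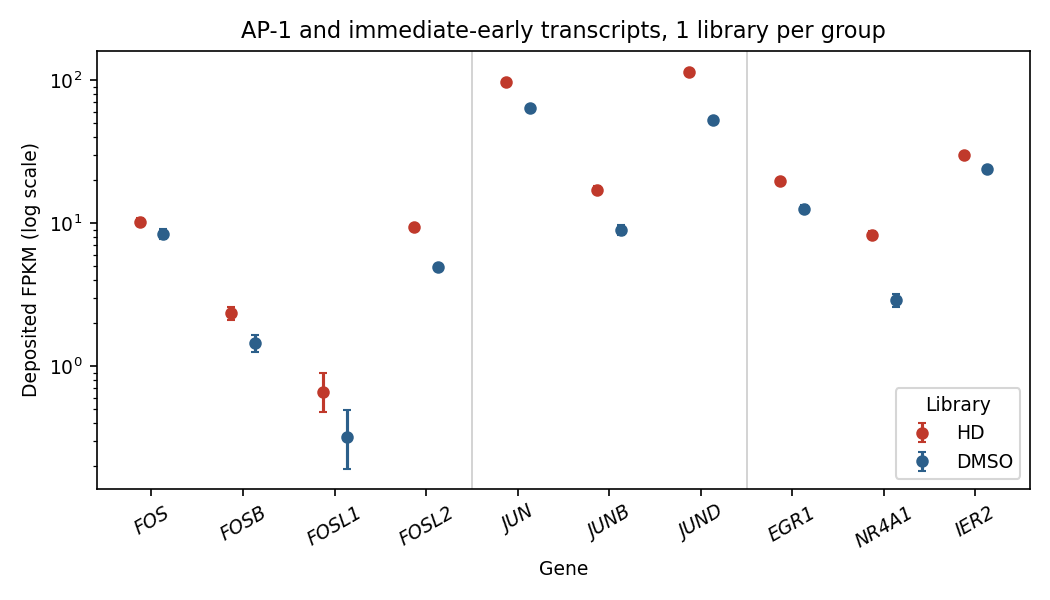
Deposited FPKM of each gene (log axis) in the HD library (red) and the DMSO library (blue), with exact 95% Poisson counting intervals and lines between the FOS family, the JUN family and the other factors. Every red point lies above its blue point, from the lowest ratio at FOS (10.2 against 8.38) to the highest at NR4A1 (8.28 against 2.90).

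The JUN family carried most of the AP-1 mRNA. JUN (chromosome 1, 58780791 to 58784047), the main partner of FOS proteins and a target of the JNK kinases, had 12980 counts in the HD library and 8004 in the DMSO library, or 97.7 against 64.4 FPKM. Its ratio was 1.52 (1.48 to 1.57). JUND (chromosome 19, 18279694 to 18281622), the member known for steady expression in resting cells and for restraint of growth, had 8998 counts against 3908, or 114 against 53.1 FPKM, a ratio of 2.16 (2.08 to 2.24). Only 4.56% of measured genes had a higher ratio than JUND. JUNB (chromosome 19, 12791486 to 12793315), a weaker activator that can oppose JUN, had 1284 counts against 624, or 17.2 against 8.94 FPKM. Its ratio of 1.93 (1.75 to 2.13) was under the 2-fold rule.

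The order of the leading JUN genes was reversed between the libraries. JUND had 1.17 times the FPKM of JUN in the HD library (1.14 to 1.20) and 0.824 times in the DMSO library. JUND made up 49.9% of the summed FPKM of the family in the HD library and 42.0% in the DMSO library, JUN 42.6% against 50.9%, and JUNB 7.50% against 7.07%. All 3 pairs differed beyond counting error. The ratio of JUN was 0.704 times that of JUND (0.672 to 0.738) and 0.788 times that of JUNB (0.713 to 0.871), and the ratio of JUNB was 0.894 times that of JUND (0.806 to 0.990). Summed over the families, JUN genes stood at 229 FPKM in the HD and 127 FPKM in the DMSO library, and FOS genes at 22.6 against 15.1 FPKM. The JUN genes thus had 10.2 times the summed FPKM of the FOS genes in the HD library and 8.40 times in the DMSO library.

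**Figure D2:**
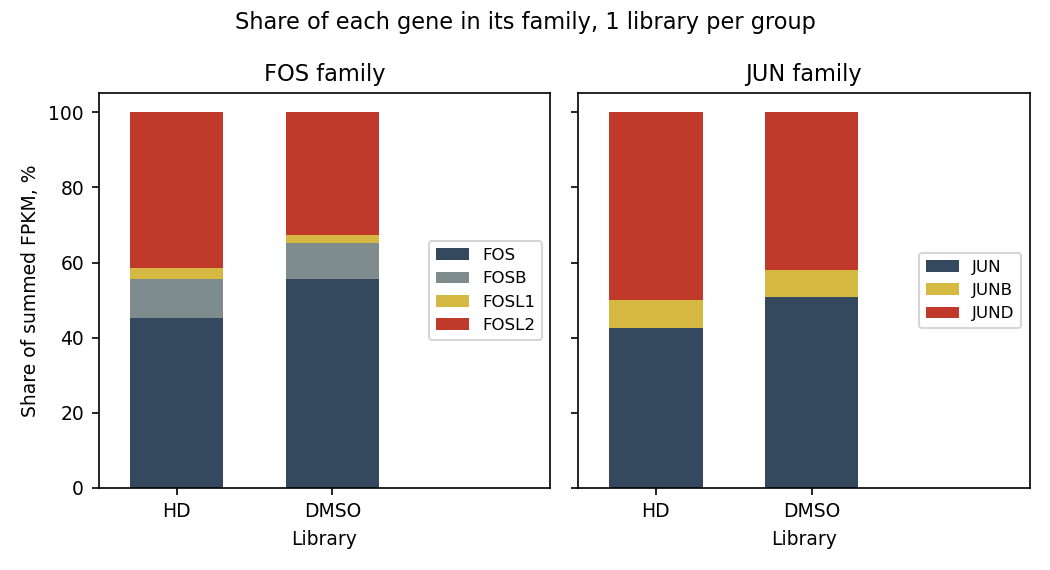
Share of each gene in the summed FPKM of its family, in percent, in the HD library (left bar) and the DMSO library (right bar). FOSL2 and JUND have the larger shares in the HD bars (41.5% and 49.9%) and FOS and JUN in the DMSO bars (55.6% and 50.9%), with no replicate in either group.

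Among the factors outside AP-1, NR4A1 differed most. NR4A1 (chromosome 12, 52022832 to 52059503), the orphan nuclear receptor NUR77, had 1098 counts in the HD library and 359 in the DMSO library, or 8.28 against 2.90 FPKM. Its ratio of 2.87 (2.55 to 3.24) was the highest of the 10, with 1.80% of measured genes above it. EGR1 (chromosome 5, 138465479 to 138469303), a zinc-finger factor that binds GC-rich sites, had 2522 counts against 1512, or 19.7 against 12.6 FPKM, a ratio of 1.57 (1.47 to 1.67). IER2 (chromosome 19, 13150411 to 13154911), a nuclear regulator without a known DNA-binding domain, had 2577 counts against 1937, or 29.9 against 24.1 FPKM, a ratio of 1.25 (1.18 to 1.33). The ratio of NR4A1 was 2.30 times that of IER2 (2.01 to 2.63), that of EGR1 was 0.545 times that of NR4A1 (0.476 to 0.624) and 1.25 times that of IER2 (1.15 to 1.37). In the GENCODE release 29 annotation, 18.6% of the exon bases of NR4A1 and 24.6% of those of IER2 lie under exons of non-coding genes on the opposite strand. The labels do not state whether counting used the strand, so reads of these partners cannot be told apart.

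By the 2-fold rule, JUND and NR4A1 were higher, which is 2 of the 9 genes that passed the filter, and none was lower. Over all measured genes, 5.81% were higher and 5.10% lower. At 1.5-fold, 7 of these 9 were higher, against 14.1% of all measured genes. FOS and IER2 were the exceptions, and 27.5% and 25.6% of measured genes had a higher ratio than these. The 5 genes JUN, EGR1, FOSB, FOSL2 and JUNB lay between, at 1.52-fold to 1.93-fold. Of 12 pairs compared within the FOS family, within the JUN family and among EGR1, NR4A1 and IER2, 8 had ratios that differed beyond counting error.

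**Figure D3:**
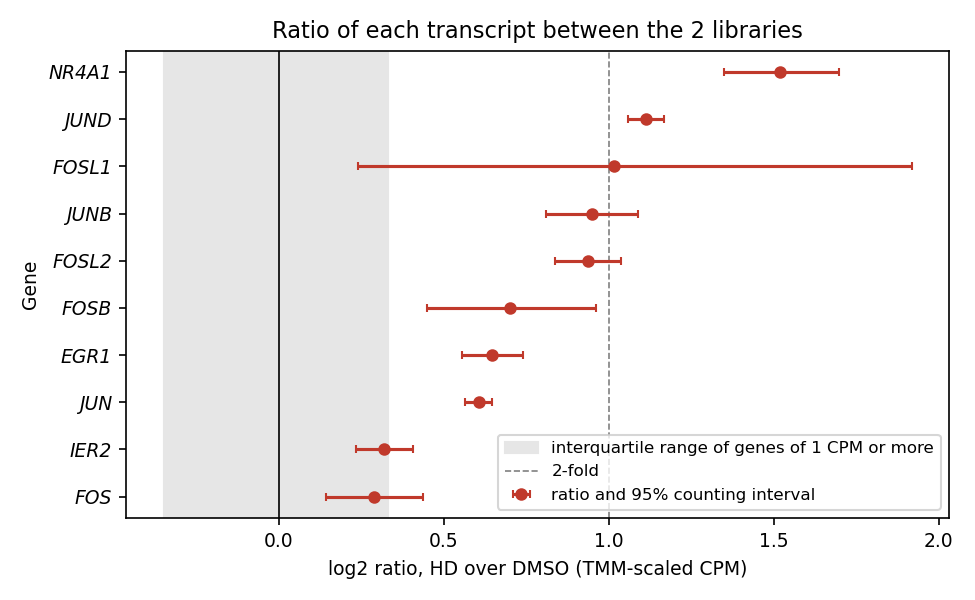
Log2 ratio, HD over DMSO, of each gene (points) with its 95% counting interval (bars), ordered by ratio, with the interquartile range of measured genes shaded and 2-fold as a dashed line. NR4A1 at 1.52 and JUND at 1.11 have intervals wholly past 2-fold, FOS at 0.29 and IER2 at 0.32 have points within the shaded band, and no gene lies below 0.

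By length-scaled level, the order in the HD library was JUND, JUN, IER2, EGR1, JUNB, FOS, FOSL2, NR4A1, FOSB and FOSL1. Each neighbour in this order differed from the next beyond counting error, the closest being FOS with 1.09 times the FPKM of FOSL2 (1.01 to 1.18). The DMSO library had the same order except that JUN came before JUND. There JUNB and FOS did not differ beyond counting error, at a ratio of 1.07 (0.957 to 1.19). The length that the deposited counts and FPKM imply was 3257 bases for JUN, 1830 for JUNB and 1929 for JUND, in each case the full RefSeq span of a gene without introns. For FOS it was 2104 bases and for FOSL2 6536 bases, so raw counts overstate FOSL2 against FOS. Counting intervals do not cover the choice of length. For NR4A1 the implied length was 3249 bases, against 2678 in the GENCODE transcript chosen for it. Its place after FOS and FOSL2 in the HD library therefore depends on the length used.

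The mRNAs share part of their structure. In the GENCODE transcript chosen for each gene, JUN, JUNB, JUND and IER2 have a single exon, as do 1.95% of 11858 measured genes with a 3′ UTR. The 231 measured single-exon genes had a median log2 ratio of 0.17, against -0.01 over all measured genes. For IER2 the deposited values imply a length of 2110 bases within a RefSeq span of 4501, and its single exon is that of the GENCODE transcript. The AU-rich pentamer ATTTA, a mark of unstable mRNAs, was in the 3′ UTR of 9 of the 10 genes, IER2 being the exception, and in that of 70.3% of measured genes. FOS had 6.20 copies per kilobase and NR4A1 5.34, against a median of 1.63 over measured genes, and 5 of the 10 were above that median. FOS and FOSL2 also hold the longer element TTATTTATT, found in 8.47% of measured genes. The 30-base stretches richest in ATTTA are shown for FOS and NR4A1, the genes with the lowest and the highest ratio, with ATTTA in capitals, which may overlap.
FOS: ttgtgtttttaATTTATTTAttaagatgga
NR4A1: cATTTAtatttgtgtattttcctggATTTA

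**Figure D4:**
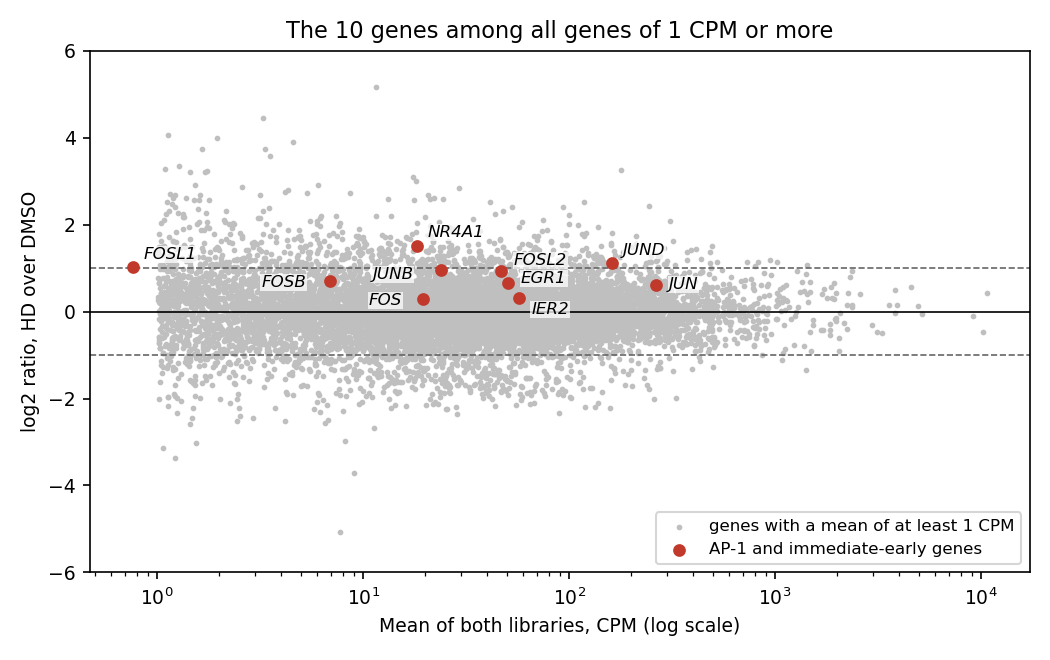
Log2 ratio, HD over DMSO, against the mean level of both libraries in CPM (log axis), for genes of at least 1 CPM (grey) and the 10 genes (red), with 2-fold marked by dashed lines. The red points run from FOSL1 at 0.764 CPM to JUN at 264 CPM, and all lie above 0.

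Other basic leucine zipper (bZIP) factors, which can pair with JUN or FOS proteins or compete for their sites, went in the same direction in part. Of 25 measured, 7 were higher (28.0%), none was lower and 18 had ratios above 1. Their median log2 ratio was 0.63, or 0.18 when at least 5 CPM was required. The shares over all measured genes were 5.81% higher and 5.10% lower. ATF3, a stress-induced partner of JUN, was at 79.6 against 15.9 CPM. MAFK, a small MAF protein that lacks an activation domain, was at 30.2 against 11.4 CPM, 2.65-fold higher (2.38 to 2.97). MAF was 2.56-fold higher (2.44 to 2.70) and the small MAF gene MAFF 2.47-fold (2.32 to 2.62). The other 3 higher genes, MAFG at 2.14-fold, DDIT3 at 2.20-fold and BATF2 at 2.01-fold, were chosen after their values were seen. CREB1, ATF1 and CREM, which bind the CRE and were likewise chosen afterwards, had log2 ratios of -0.08, -0.12 and -0.15. The other ATF genes of the list went both ways. ATF2 was at 0.14, ATF4 at 0.73, ATF6 at 0.18, ATF6B and ATF7 at 0.02 each, and ATF5 at -0.20.

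Of 31 other measured immediate-early genes, 8 were higher (25.8%), 1 was lower and 22 had ratios above 1. Their median log2 ratio was 0.74. Over all measured genes, the shares were 5.81% higher and 5.10% lower. GEM, a small GTPase, was at 9.06 against 2.83 CPM, 3.21-fold higher (2.58 to 4.01). BTG2, an anti-proliferative gene, was 3.20-fold higher (2.96 to 3.46), and DUSP5, a phosphatase that acts on ERK, was at 64.5 against 21.5 CPM (interval of the ratio 2.77 to 3.25). ATF3, also in the bZIP list, was the fourth gene taken by rule. KLF10 at 2.46-fold, KLF4 at 2.29-fold, IER5L at 2.25-fold and DUSP1, a phosphatase of stress kinases, at 2.00-fold complete the higher genes and were chosen after their values were seen. EGR3 had 0 counts in the HD library and 2 in the DMSO library, within the 3 counts that a count of 0 allows.

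The lower gene was NR4A2, the close relative of NR4A1, named after its value was seen. It had 351 counts in the HD library and 802 in the DMSO library, or 2.17 against 5.29 FPKM, a ratio of 0.411 (0.361 to 0.466). The ratio of NR4A1 was 6.99 times that of NR4A2 (5.88 to 8.31). NR4A1 had 3.83 times the FPKM of NR4A2 in the HD library and 0.547 times in the DMSO library. The third member of the family, NR4A3, had 16 counts against 20.

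Genes with textbook AP-1 sites or AP-1 dependence went both ways. Of 32 listed, 19 were measured, of which 6 were higher (31.6%), 1 was lower and 12 had ratios above 1. Their median log2 ratio was 0.86. Of all measured genes, 5.81% were higher and 5.10% lower. IL1A, an inflammatory cytokine, had 151 counts in the HD library and 8 in the DMSO library, a ratio of 17.7 (8.77 to 41.8). The EGF receptor ligands AREG and HBEGF were 4.39-fold (3.98 to 4.85) and 3.70-fold (2.84 to 4.88) higher. CXCL8 at 2.64-fold and ITGA2 at 2.33-fold were named after their values were seen. So was PLAU, the plasminogen activator urokinase, which had 166 counts against 399, a ratio of 0.391 (0.324 to 0.469).

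The kinases and factors that feed immediate-early promoters showed no common direction. Of 31 measured, 1 was higher, 1 was lower and 16 had ratios above 1. Their median log2 ratio was 0.00, whose sign depended on the scaling. Among all measured genes, 5.81% were higher and 5.10% lower. MEF2D, a factor of the MEF2 family, was 2.05-fold higher (1.92 to 2.19), and MAP2K6, which activates the p38 kinases, had a ratio of 0.432 (0.396 to 0.470). SRF was at 1.19 (1.11 to 1.27), its coactivator MRTFA at 1.49 (1.39 to 1.60), its ETS-type partner ELK1 at 0.886 (0.816 to 0.961) and the ERK-activated kinase RPS6KA3 at 0.655 (0.640 to 0.670). Of 16 measured coregulators and turnover factors none passed 2-fold in either direction, and the median was 0.12. The EGR corepressors NAB1 and NAB2 had ratios of 0.739 (0.694 to 0.787) and 1.22 (1.09 to 1.38), TRIB1 1.73 and the ubiquitin ligase SMURF1 1.38.

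**Figure D5:**
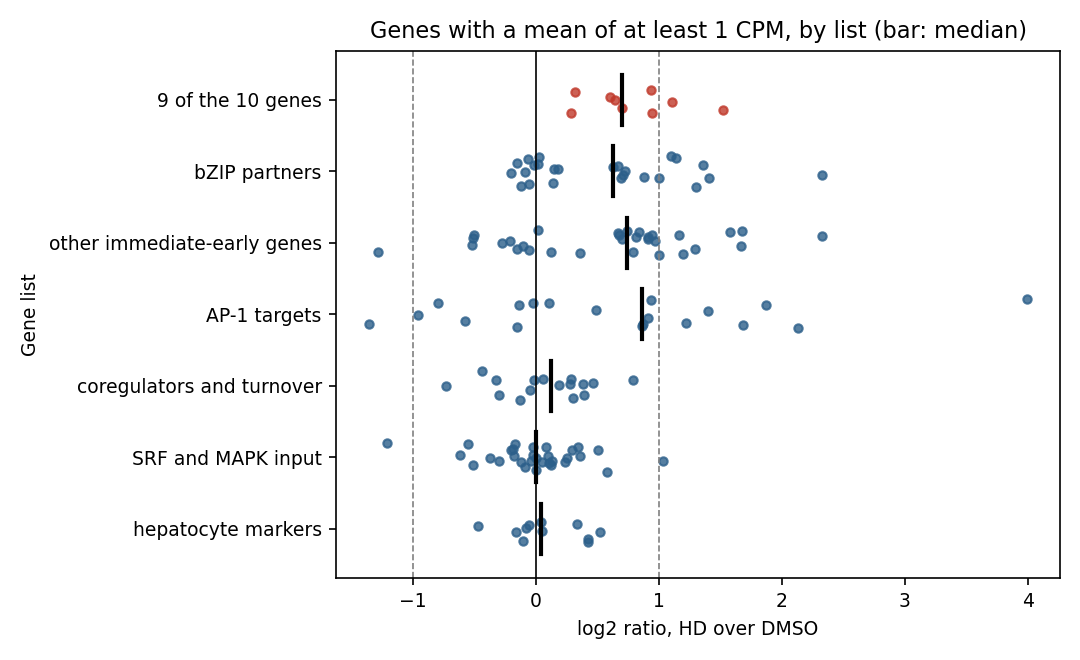
Log2 ratio, HD over DMSO, of each gene of at least 1 CPM (points) by list, with the list's median as a black bar and 2-fold as dashed lines. The medians are 0.70 for the 9 of the 10 genes that passed the filter, 0.63 for other bZIP factors, 0.74 for other immediate-early genes and 0.86 for AP-1 targets, against 0.12 for coregulators, 0.00 for the SRF and MAPK genes and 0.05 for hepatocyte markers.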

How the data were processed

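The counts were deposited by the authors as a single raw table with a column for each library, tied to samples by the labels, and the FPKM as a table for each library, also by the authors. The build was hg38, per the submitters' processing notes. The aligner, counter, strand setting and annotation were not given in the sources used here. TMM factors came from edgeR 4.0.16 in R 4.3.3, and DESeq2 1.42.0 size factors were an alternative. Ratios, intervals (Clopper-Pearson, conditional on the summed count, at 95%) and motif counts came from scipy 1.17.1, pandas 2.3.3 and numpy 2.4.6 under Python 3.11.15. Log2 ratios carry a prior count of 1. Intervals of ratios between genes are normal approximations on the log scale. Since PCR copies are not independent molecules, counting error is all that the intervals and floors cover. The ratio, interval and motif steps were tested on simulated data.

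The 10 genes and the other lists were chosen with earlier results of these data known. Besides the 10, up to 4 genes of each list with the largest absolute log2 ratio at 1 CPM or more are named, with ATF3, SRF, ELK1, NAB1, NAB2 and EGR3 whatever their values. A few picked in this way are left out here. Markers of other cell types are given as sums, with LYZ, PECAM1 and genes at 0. No gene is named for a like pattern, since 2 libraries give 1 ratio. Gene spans, symbols (19802 of 19927 matched) and promoters are from RefSeq on GRCh38.p14, the assembly of hg38. Exons and 3′ UTRs are from GENCODE release 29, with 1 transcript a gene by APPRIS rank and then coding length.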

Additional observations from a re-analysis of the deposited data

How the results depend on the processing

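No paired analysis was possible because the labels give 1 library per group and no replicate number, and no library could be left out for the same reason. The log2 ratio of each of the 10 genes stayed within its counting interval under scaling to totals, DESeq2 size factors, upper-quartile factors, prior counts of 0.5 and 5, and deposited FPKM with a pseudocount of 0.1. The number of the 10 genes past the rule depended on the fold asked, with 7 higher at 1.5-fold, 2 at 2-fold and 0 at 3-fold. The other pathway lists hold 145 genes of the table outside the 10, including some below 1 CPM. Of those measured, 42 were higher and 7 lower at 1.5-fold, 21 and 3 at 2-fold, and 7 and 0 at 3-fold. Their shares at 2-fold are given by list above. Of all 12353 measured genes, 1736 were higher (14.1%) and 1736 lower at 1.5-fold. At 2-fold 718 were higher (5.81%) and 630 lower (5.10%), and at 3-fold 192 and 201. With no filter on low values, 1197 of the 15977 genes with a count in either library were higher and 946 lower at 2-fold.

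With at least 5 CPM the median log2 ratio of the bZIP factors was 0.18 in place of 0.63, fewer genes being measured. As means, the immediate-early list stood at 0.57, the AP-1 targets at 0.66 and the hepatocyte markers at 0.087. The median of the SRF and MAPK genes was -0.0031 with scaling to totals and their mean -0.011, against a median of 0.0028. Without length scaling, shares in the HD and the DMSO library were 23.2% and 31.7% for FOS, 9.27% and 9.49% for FOSB, 1.12% and 0.897% for FOSL1, 66.4% and 57.9% for FOSL2, 55.8% and 63.8% for JUN, 5.52% and 4.98% for JUNB, and 38.7% and 31.2% for JUND. JUN then exceeds JUND in both libraries, and FOSL2 exceeds FOS in both, by construction of the unscaled counts. At 42 and 19 counts, depth limits FOSL1 to an interval of 1.18 to 3.78.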

Other observations

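Several AP-1 targets lay below 1 CPM and were chosen here after their values were seen. MMP10, a matrix metalloproteinase, had 25 counts in the HD library and 3 in the DMSO library, a ratio of 7.82 (2.39 to 40.5). The collagenase MMP13 and the cytokine IL11 each had 16 counts against 2, and the EGF receptor ligand EREG had 16 against 4 (ratio 3.75, 1.21 to 15.4). BATF3, a bZIP factor that pairs with JUN proteins, had 26 counts against 9 (ratio 2.71, 1.23 to 6.58).

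Among the measured AP-1 targets under the 2-fold rule, HMGA2, a chromatin protein of fetal tissue, had a ratio of 0.516 (0.497 to 0.535) and LAMB3, a laminin chain, one of 1.83 (1.73 to 1.94). The immediate-early genes RHOB and PPP1R15A were 1.88-fold (1.83 to 1.94) and 1.96-fold (1.89 to 2.03) higher, just under the rule. In the same list CCN2 had a ratio of 0.703 (0.677 to 0.731), ZFP36L2 0.700 (0.675 to 0.727) and ID1 0.705 (0.687 to 0.724). All these were named after their values were seen. Of the 31 measured genes of that list, 22 had ratios above 1 and 9 below. The 1004 measured genes with TTATTTATT in the 3′ UTR had a median log2 ratio of 0.09, against -0.01 over all measured genes.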
